A study of Drosophila melanogaster with 12 samples.

Results

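Zona pellucida (ZP) domain proteins are secreted or membrane-anchored proteins that polymerise in the matrix over the apical face of epithelia. The set described here was a list of 10 Drosophila genes of this kind, neo (neyo), nyo (nyobe), mey (morpheyus), m (miniature), dy (dusky), dyl (dusky-like), dpy (dumpy), pio (piopio), tyn (trynity) and qsm (quasimodo). Members were the listed genes for which at least 1 array probe carried the current gene symbol, and 7 of the 10 were measured by this rule, among 12058 genes measured in all. They were neo, mey, dy, dyl, dpy, tyn and qsm, with 9 probes of the 16416 on the array, of which 3 belonged to dyl and 1 to each of the others. No probe with 1 gene symbol was named for nyo, m or pio, and those 3 genes were not analysed here. Probes with several symbols or none had been left out before the members were looked up.

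The arrays followed wing imaginal discs, the larval precursors of the adult wing, through regeneration after a cut. All discs came from larvae of 1 isogenic DrosDel line, spelled w118iso; 2iso; 3iso in the labels, and they were kept after the operation in the abdomen of newly emerged Canton S females, which served as living culture vessels. Cut discs had lost a posterior sector, so the implanted piece was the anterior fragment, while non-cut discs were implanted whole. There were 3 comparisons, each on 4 two-colour arrays: non-cut discs at 24 hours against 0 hours (NC0→NC24), cut discs at 24 hours against 0 hours (C0→C24), and cut discs at 72 hours against 24 hours (C24→C72). Each comparison had 2 biological replicates, and each replicate was hybridised on 2 arrays with the dyes swapped, from the same amplified RNA. The cut discs' 24-hour RNA stood on both cut comparisons, as the later sample of the first and the earlier sample of the second, and no array set cut against non-cut discs. Discs in both conditions had been implanted, so the non-cut series carried host culture without the cut.

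Each value is a log2 ratio that sets the later time against the earlier one, so that a negative value is a lower amount of RNA at the later time. Neither the base nor the direction of the ratios is given in the sources used here. This reading of the direction is likely from the names of the comparisons, which run from the earlier to the later time, and from the way the study describes the course of genes such as cbt and tok, and every rise, fall and fold below rests on it and on base 2. A ratio holds no level: the arrays tell how a gene changed, not how strongly it was expressed, and the presence of wing disc markers could be followed only as a change. A gene was said to rise or fall when its change was at least 1.5-fold, 0.585 on the log2 scale, with an adjusted p under 0.05 from limma over all 12058 genes. Errors after a ± sign are standard errors (SE) of that fit, in which each comparison had n = 2 replicate means. In bulk RNA such as this, fewer cells of a type and less RNA per cell cannot be told apart.

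ZP domain proteins are best known in the fly from the embryonic epidermis, where the transcription factor Shavenbaby, a product of the ovo gene, switches on several of them and each one shapes its own part of the forming denticle. In the pupal wing, products of the same gene family hold the cell surface to the overlying cuticle, and their loss leaves small, folded or blistered wings or malformed hairs. Their matrix is remodelled by secreted and membrane-bound proteases and gives way to chitin-rich cuticle under the control of the moulting hormone ecdysone.

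neo, which shapes the apical surface of embryonic epidermal cells, had the largest change of the set and fell in every comparison. In NC0→NC24 its array values were -2.28 with the 24-hour RNA in Cy3 and -2.32 with it in Cy5 for replicate 1, and -2.48 and -2.16 for replicate 2. In C0→C24 they were -2.87 and -3.68 for replicate 1, and -3.60 and -2.06 for replicate 2. All 8 arrays of the first day were far below 0. The cut and non-cut values overlapped only through the Cy5 array of cut replicate 2, which was the weakest of the cut arrays. The fitted change was -2.31 ± 0.11 (adjusted p = 3.18e-05), a 4.96-fold fall, in non-cut discs and -3.05 ± 0.11 (adjusted p = 3e-06), an 8.3-fold fall, in cut discs. In each of these comparisons neo had the 4th lowest value among the 12058 genes.

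The fall of neo went on after the first day. In C24→C72 its values were -0.99 and -0.66 for replicate 1, with the 72-hour RNA in Cy5 and then in Cy3, and -0.84 and -0.53 for replicate 2, all below 0. The fit gave -0.76 ± 0.11 (adjusted p = 0.00591), a 1.69-fold fall. This last call was lost when C24→C72 was fitted alone (adjusted p = 0.0847), and it did not reach 2-fold.

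**Figure D1:**
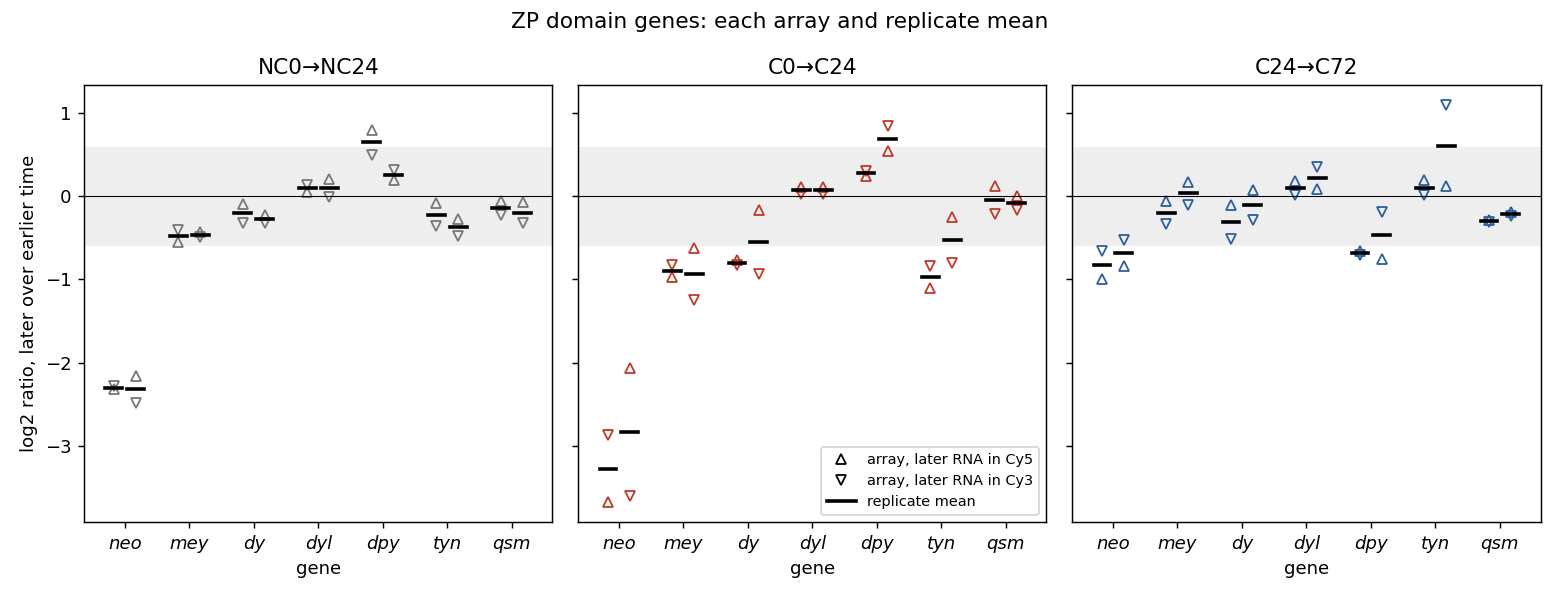
Log2 ratios (later over earlier time, vertical axis) of the 7 measured ZP domain genes on each of the 12 arrays, grouped by comparison, with upward triangles for the later RNA in Cy5 and downward triangles for Cy3, and short bars for the mean of each replicate (left bar replicate 1, right bar replicate 2). The grey band spans changes under 1.5-fold. neo is below the band on all arrays but 1 of C24→C72, mey, dy and tyn are lower in C0→C24 than in NC0→NC24, and dyl and qsm stay inside the band.

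mey, a second ZP gene that acts with neo on the embryonic cell surface, had small and even values in non-cut discs. They were -0.41 and -0.55 for replicate 1 and -0.49 and -0.43 for replicate 2, a fitted change of -0.47 ± 0.09 (adjusted p = 0.00464) that stayed under 1.5-fold. In C0→C24 mey stood at -0.83 and -0.97 for replicate 1 and at -1.25 and -0.62 for replicate 2. Every cut array was below every non-cut array, which held for mey alone among the 7 genes. mey fell in cut discs by 0.92 ± 0.09 on the log2 scale (adjusted p = 0.000111), a 1.89-fold fall. From 24 to 72 hours its arrays were -0.06, -0.33, 0.17 and -0.10, on both sides of 0, and the change was -0.08 (adjusted p = 0.613).

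dy, whose loss makes wing cells small and the wing dark, was near 0 on the non-cut arrays, at -0.32 and -0.09 for replicate 1 and -0.32 and -0.23 for replicate 2. In C0→C24 it stood at -0.83 and -0.77 for replicate 1 and at -0.94 and -0.16 for replicate 2. On 3 of the 4 cut arrays dy was below every non-cut value, and the Cy5 array of replicate 2 lay among them. dy fell in cut discs by 0.68 ± 0.10 (adjusted p = 0.000896), 1.6-fold, against -0.24 ± 0.10 (adjusted p = 0.116) in non-cut discs. Without cut replicate 1 the fall of dy was -0.55 (adjusted p = 0.0439), short of 1.5-fold. In C24→C72 its arrays ranged from -0.51 to 0.07 and the change was -0.21 ± 0.10 (adjusted p = 0.218).

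tyn, needed for the barrier of the embryonic epidermis, had non-cut values of -0.36 and -0.08 for replicate 1 and -0.48 and -0.27 for replicate 2. Its C0→C24 values were -0.84 and -1.1 for replicate 1 and -0.80 and -0.25 for replicate 2. As with dy, 3 cut arrays were below all non-cut arrays and the Cy5 array of replicate 2 was not. tyn fell in cut discs by 0.75 ± 0.14 (adjusted p = 0.00418), 1.68-fold, and its change in non-cut discs was -0.30 ± 0.14 (adjusted p = 0.185). Without cut replicate 1 the value in cut discs was -0.53 (adjusted p = 0.138) and the call was lost. From 24 to 72 hours 3 arrays of tyn were between 0.01 and 0.19 and the remaining one, the Cy3 array of replicate 2, was at 1.1, which gave 0.36 ± 0.14 (adjusted p = 0.156), or 0.11 without that array.

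dpy, a giant fibrous protein that ties epithelia to the cuticle over them, had the largest positive changes of the set on the first day. Its values in NC0→NC24 were 0.50 and 0.80 for replicate 1 and 0.32 and 0.19 for replicate 2, and in C0→C24 they were 0.31 and 0.25 for replicate 1 and 0.84 and 0.54 for replicate 2. All 8 arrays were above 0, the replicates of each condition lay apart, and the conditions overlapped. The fitted changes, 0.45 ± 0.13 (adjusted p = 0.0351) and 0.49 ± 0.13 (adjusted p = 0.0218), were under 1.5-fold. In C24→C72 dpy was below 0 on each array, at -0.66 and -0.70 for replicate 1 and -0.75 and -0.19 for replicate 2. The change of -0.58 ± 0.13 (adjusted p = 0.0282) was 1.49-fold and so just short of the call, which it met at -0.72 (adjusted p = 0.0161) without the Cy3 array of replicate 2.

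dyl, which is required for wing hairs and bristles, and qsm, known from the light input to clock neurons, had no call. Averaged over its 3 probes, dyl ranged from -0.01 to 0.21 on the non-cut arrays, from 0.03 to 0.11 in C0→C24 and from 0.02 to 0.35 in C24→C72, and its single probes spanned -0.32 to 0.74 over the 12 arrays. qsm ranged from -0.32 to -0.06, from -0.21 to 0.12 and from -0.31 to -0.19 in the same order. The fitted changes of dyl were 0.10, 0.07 and 0.16 and those of qsm were -0.17, -0.06 and -0.26, each with an adjusted p above 0.05.

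The members are counted here against all genes. In NC0→NC24 1 of the 7 fell and 0 rose, where 8.99% of all genes were called, 3.85% down and 5.14% up. In C0→C24 4 of the 7 fell and 0 rose, where 11.1% of all genes were called, 4.94% down and 6.12% up. For C24→C72 the count was 1 fallen and 0 risen, against 2.94% of all genes called, 1.58% down and 1.36% up. By adjusted p alone, with no demand on the fold, the counts were 3, 5 and 2 members, beside 22.3%, 26.7% and 9.09% of all genes. The member medians were -0.24, -0.68 and -0.21 in these comparisons, beside medians over all genes of -0.003, -0.012 and 0.025. At a 2-fold threshold only neo was left in NC0→NC24 and in C0→C24, and 0 members were left in C24→C72, where 2.55%, 3.53% and 0.556% of all genes were called.

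Non-cut and cut discs were compared over the first day through the difference of their changes. Taken as cut minus non-cut, it was -0.74 for neo (95% interval -1.099 to -0.386, adjusted p = 0.199). For mey the difference was -0.45 (-0.73 to -0.17, adjusted p = 0.379), for dy -0.44 (-0.74 to -0.13, adjusted p = 0.511) and for tyn -0.45 (-0.90 to 0.00, adjusted p = 0.85). For dyl, dpy and qsm it was -0.03 (-0.28 to 0.23), 0.03 (-0.38 to 0.45) and 0.11 (-0.15 to 0.36). These intervals are not corrected for the number of genes, and 0 of the 7 members passed the test across all genes, where 0.0746% of genes did, 0.0166% down and 0.0581% up. Without adjustment 3 members were under 0.05, as were 716 genes, or 5.94% of all. mey, dy and tyn were thus called in cut discs and not in non-cut discs, without a difference between the conditions that passed the test. In simulated data the test of the difference recovered 52.6% of 1.5-fold changes, where C0→C24 recovered 95.4% and NC0→NC24 95.2%. These shares belong to the simulated setting and need not hold in the real data, where 0.0746% of genes passed. The differences of mey, dy and tyn were also smaller than 1.5-fold, at 1.36, 1.35 and 1.37-fold. A difference that missed the test is therefore not shown to be absent.

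Both cut means were below both non-cut means for 5 members, neo, mey, dy, dyl and tyn, and above them for 1, qsm, and they overlapped for dpy. Over all genes the corresponding shares were 20% below and 17.1% above. The Cy5 array of cut replicate 2 had the smallest spread over genes of its comparison, an SD of 0.358 where the other 3 had 0.427 to 0.559, and neo, mey, dy and tyn each had their smallest change in C0→C24 there. Leaving it out, which unbalances the dyes, gave a C0→C24 change of -3.44 for neo, -1.08 for mey, -0.87 for dy and -0.89 for tyn. The difference for neo then became -1.13 (adjusted p = 0.0185) and passed the test, the only member to do so, where 0.572% of all genes passed.

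**Figure D2:**
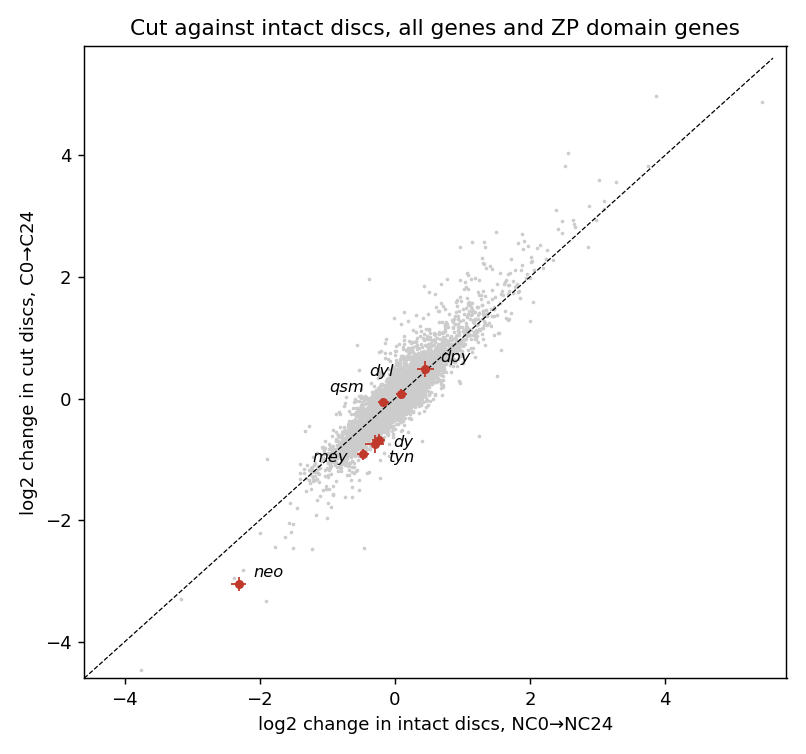
Change over the first day in cut discs (vertical axis, log2) against non-cut discs (intact on the horizontal axis, log2) for the 7 measured ZP domain genes in red, with bars for the SE of the fit, all genes as grey points and a dashed diagonal where both changes are equal. neo, mey, dy and tyn are below the diagonal by 0.44 to 0.74, while dyl, dpy and qsm are within 0.11 of it.

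Markers of other cells moved over the same day. Of 8 hemocyte markers, which label the blood cells of the fly, 2 rose in NC0→NC24 and 5 in C0→C24, with changes of -0.53 to 1.11 and of 0.17 to 1.55. Without non-cut replicate 2 the count in NC0→NC24 was 1, as Hml stood at 0.57 (adjusted p = 0.0509). The difference between cut and non-cut discs was itself called for the fat body marker fat-spondin, at 0.99 (adjusted p = 0.0404). With the replicate number as a block that call was lost, as 0 genes were called. The call of fat-spondin was also lost without non-cut replicate 1 and without either replicate of C0→C24. The difference was also called for the hemocyte markers eater, at 1.29 (adjusted p = 0.0268), and He, at 1.01 (adjusted p = 0.0404). Both calls were lost without any one of the first-day replicates (adjusted p = 0.19 to 0.388 for eater and 0.238 to 0.475 for He) and with the replicate number as a block (adjusted p = 0.0737 and 0.0809). Of 5 measured fat body markers 1 rose in non-cut discs, over a range of -0.39 to 0.97, and 4 rose in cut discs, over 0.13 to 1.97, and the first count was 2 without non-cut replicate 1, with apolpp at 0.90 (adjusted p = 0.0162). Of 8 wing disc markers 0 were called in non-cut discs and 1, nub, fell in cut discs by 0.64, the range being -0.51 to 0.28 and -0.64 to 0.39, and without non-cut replicate 2 nub was called there too, at -0.60 (adjusted p = 0.0259). Tracheal, muscle and neuron markers gave 1 of 2, 1 of 6 and 0 of 4 risen in either condition. The tracheal marker that rose was Gasp, which is also counted among the chitin matrix genes below. The other, btl, stood at -0.03 (adjusted p = 0.882) in non-cut discs. In cut discs it was at -0.445 (adjusted p = 0.0105), under 1.5-fold and of the opposite sign to Gasp. The part of these in the members' changes was not tested.

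The cut-disc changes were summed to follow each gene from 0 to 72 hours. C0→C24 and C24→C72 share the 24-hour RNA with opposite signs, so their values are not independent, and the SE of the sum, which takes them as independent, leaves this out. The sum for neo was -3.81 ± 0.16 (adjusted p = 1.16e-05), a 14-fold fall and the 5th lowest of all genes. mey fell by 0.997 ± 0.12 (adjusted p = 0.000551), 2.0-fold, and dy by 0.88 ± 0.14 (adjusted p = 0.00167), 1.84-fold. Thus 3 of 7 members fell over 72 hours, where 16.8% of all genes were called, 7.4% down and 9.43% up. By adjusted p alone it was also 3 members, beside 25.3% of all genes.

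For the other members the summed change was not called. For dpy it was -0.09 (adjusted p = 0.775), with a first change of 0.49 and a second of -0.58. For tyn it was -0.39 (adjusted p = 0.198), which became -0.64 (adjusted p = 0.0257) without the Cy3 array of C24→C72 replicate 2. dyl and qsm summed to 0.23 (adjusted p = 0.183) and -0.32 (adjusted p = 0.0693).

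**Figure D3:**
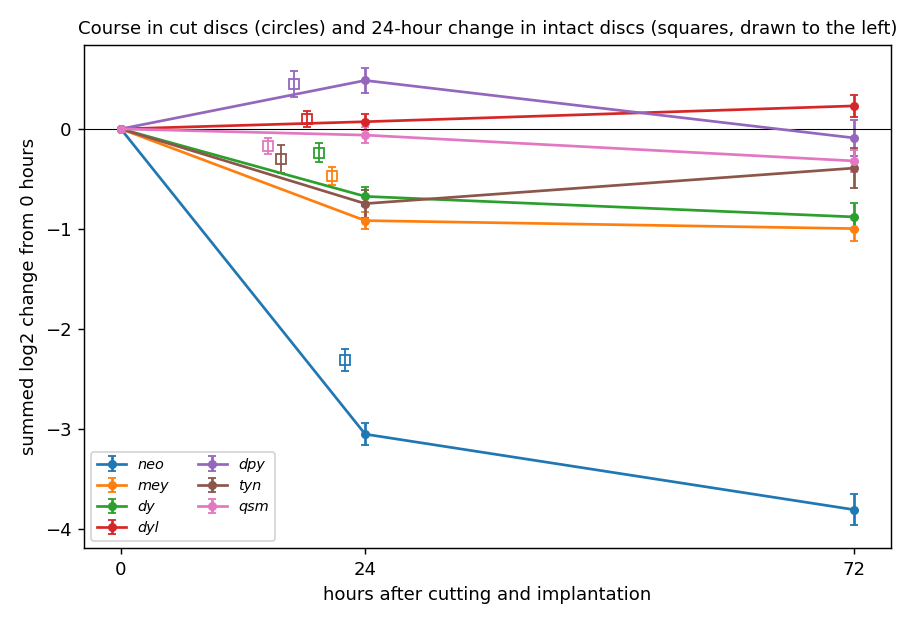
Summed log2 change from 0 hours (vertical axis) against hours after cutting (horizontal axis) for cut discs (circles and lines) and the 24-hour change of non-cut discs (squares, drawn left of 24 hours so that they can be seen), with bars for the SE of the fit. neo goes down to -3.05 and then -3.81, mey and dy go down on the first day and change little after it, and dpy goes up to 0.49 and back to -0.09.

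Other genes of the matrix were counted from lists written with earlier results known. The 8 other ZP domain genes, all measured, had 0 calls in NC0→NC24, and 1 of them fell in each of C0→C24 and C24→C72, with medians of -0.04, -0.02 and -0.08. That gene was CG10005, at -0.74 (adjusted p = 0.00272) and -0.85 (adjusted p = 0.00696), though in C0→C24 it lost its call without either replicate (adjusted p = 0.0692 and 0.0564), and in C24→C72 without replicate 2, where it stood at -0.55. pot, which like dpy and pio anchors epithelium to the apical matrix, stood at -0.45 (adjusted p = 0.0162) and -0.44 (adjusted p = 0.0159) on the first day, under 1.5-fold. CG12814 stood at 0.11 (adjusted p = 0.409) and 0.45 (adjusted p = 0.00327), also under 1.5-fold and of the opposite sign.

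Shavenbaby and 7 other measured genes that act with or under it had 2 falls in NC0→NC24, 2 in C0→C24 and 0 calls in C24→C72. On both occasions they were Ubr3, a ubiquitin ligase needed to process Shavenbaby, and sn, the actin bundler fascin. Ubr3 was at -0.63 (adjusted p = 0.00114) in non-cut and -0.90 (adjusted p = 0.000134) in cut discs, and sn at -0.74 (adjusted p = 0.00138) and -1.09 (adjusted p = 0.000134). ovo itself stood at -0.17 (adjusted p = 0.185), -0.14 (adjusted p = 0.277) and -0.13 (adjusted p = 0.372) in the 3 comparisons.

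Of the 7 measured matrix proteases and inhibitors 2 fell in NC0→NC24, 4 in C0→C24 and 1 in C24→C72, and 0 rose. tok, a secreted metalloprotease of the Tolloid family, fell each time, at -1.18 (adjusted p = 0.000279), -1.34 (adjusted p = 9.88e-05) and -0.87 (adjusted p = 0.0052). Np, a membrane serine protease that cuts ZP proteins, was at -0.65 (adjusted p = 0.000752) and -0.88 (adjusted p = 0.000115) on the first day, and its non-cut call was lost without replicate 1 at -0.56. AdamTS-A, another secreted metalloprotease, stood at -0.09 (adjusted p = 0.556) in non-cut discs and fell by 0.95 (adjusted p = 9.66e-05) in cut discs, a difference of -0.86 that missed the test (adjusted p = 0.0622) and met it without the Cy5 array of cut replicate 2 (adjusted p = 0.0485). The list median in cut discs was -0.59.

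Of the 13 chitin matrix genes measured, 7 rose and 6 were not called in NC0→NC24, and 8 rose and 5 were not called in C0→C24. Values ranged from -0.11 to 1.58 with a median of 0.64 in non-cut discs and from -0.32 to 2.13 with a median of 0.95 in cut discs. mmy, which makes the sugar nucleotide for chitin, was at 1.58 (adjusted p = 9.4e-05) and 1.73 (adjusted p = 3e-05), and the chitin-binding Gasp at 1.30 (adjusted p = 0.000114) and 1.76 (adjusted p = 2.04e-05). In C24→C72 1 rose and 3 fell, among them the chitin deacetylase gene serp at -1.64 (adjusted p = 0.00143). Without C24→C72 replicate 2 the rise, that of mmy, was 0.72 (adjusted p = 0.0539) and the fall of Gasp was -0.53 (adjusted p = 0.0663), and neither was called.

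Among the 12 ecdysone response genes measured, NC0→NC24 had 6 higher and 2 lower calls, C0→C24 had 6 and 4, and C24→C72 had 0 and 4. The falls of the first day included ImpE2, at -3.77 in non-cut and -4.47 in cut discs, and ImpE3, at -1.78 and -2.44, both induced by ecdysone in discs. Edg84A, a cuticle protein gene, was at 2.88 and 3.16 and then at -2.82.

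**Figure D4:**
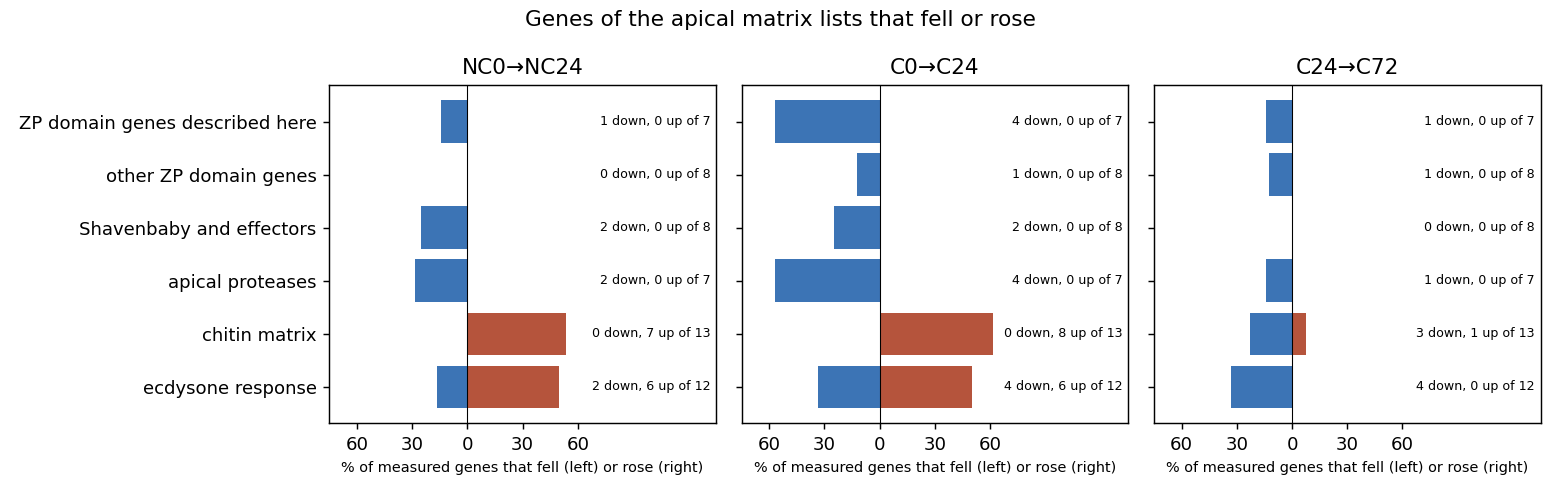
Share of the measured genes of each list (horizontal axis, percent) that fell (blue, to the left) or rose (red, to the right) in the 3 comparisons, with the counts at the right. In C0→C24 4 of 7 ZP domain genes and 4 of 7 proteases fell, while 8 of 13 chitin matrix genes rose.

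Genes with a pattern like that of each member with a call were sought by the root mean square difference over the 6 replicate means, as a description. Fkbp14, a folding factor of the endoplasmic reticulum, was nearest to neo at 0.158, with changes of -2.38, -2.96 and -0.97, followed by CG15905 at 0.298 and ImpE3 at 0.479. Only 2 genes lay within 0.3 of neo. Many more lay as near to the others, 587 genes for mey, 1160 for dy and 146 for tyn.

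The nearest genes to mey were SerRS, a transfer RNA synthetase, Prp8, a splicing factor, and dac, a transcription factor, at 0.088 to 0.112. ImpE1, lama and Cand1 were nearest to dy at 0.08 to 0.094, and slgA, Tsp and Sln nearest to tyn at 0.131 to 0.163. No member was among the 3 nearest genes of another, and mey and dy differed by 0.224, less than mey and tyn at 0.333 or dy and tyn at 0.345.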

How the data were processed

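RNA from wing discs was compared on 12 two-colour long-oligonucleotide arrays. The authors scanned them, normalised the 4 arrays of a comparison separately from the rest by OLIN and limma, and deposited log ratios per probe, taken here as log2. The base of the logarithm, the direction and the upstream limma version are not given in the sources used here. Base 2 is the usual output of these tools, and later over earlier time was taken from the names of the comparisons. Dye-swapped arrays correlated positively (0.20 to 0.84), which shows only that both arrays of a pair run the same way. The pairs of C24→C72 were lowest, at 0.44 and 0.20, where those of the first day had 0.69 to 0.84. Replicate means correlated at 0.533 in C24→C72, 0.85 in NC0→NC24 and 0.896 in C0→C24. No intensities were used here, so background and saturation are unknown.

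Probes with 1 gene symbol (13164 of 16416) were averaged by gene, with symbols updated through gene identifiers for 12533, accessions for 120 and kept for 511. 101 probes with several symbols and 3151 with none were left out. Dye-swapped arrays were averaged, and 6 replicate means in 3 groups were fitted with limma 3.58.1 in R 4.3.3 (lmFit, eBayes), with Benjamini-Hochberg adjustment over 12058 genes and 3 residual plus 5.64 prior degrees of freedom. The number of arrays limits the precision, and p-values measure the spread between replicates. The series gives a threshold of 1.5-fold, the text of the study a stricter one, used as an alternative. The script was tested on simulated data. The members, gene lists and the rule for named genes (all members, up to 3 genes of the smallest adjusted p in each pathway list and 2 in each cell type list, per comparison, neighbours and nearest patterns) were chosen with earlier results of these data known. ovo met this rule in NC0→NC24. As the gene of Shavenbaby it was also given in C0→C24 and C24→C72, outside the rule and after its values were seen. 22 alternatives were run. Replicate numbers were not used to pair the samples in the fit reported. Deviations of same-numbered replicates correlated at -0.12, 0.02 and -0.08, which cannot show whether the samples were paired.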

Additional observations from a re-analysis of the deposited data

Results flagged for a closer look

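Values on 1 array stood apart from the other 3 in 2 of the 21 sets of 4 arrays examined, where about 1 in 20 such sets is singled out by chance. Both were on the same array, C24→C72 replicate 2 with the 72-hour RNA in Cy3. There dpy was at -0.19 while its other 3 arrays lay between -0.75 and -0.66, the gap being 0.839 of the whole range. tyn was at 1.1 there while its other 3 arrays lay between 0.01 and 0.19, a gap of 0.835 of the range.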

How the results depend on the processing

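The falls of neo in both first-day comparisons and over 72 hours kept their direction and call under all alternatives run, and no member's called value changed sign. Not all alternatives could have removed a call. Dropping the fold threshold can only keep or add calls, and keeping genes with all probe values present repeated the reported fit, as 0 values were missing. Members called in NC0→NC24 went from 1 to 3 without a fold threshold, where genes called went from 8.99% to 22.3% of all. In C0→C24 the count went from 4 to 1 at 2-fold (3.53% of all genes) and to 1 with a test against 1.5-fold (3.48%), from 11.1% in the fit reported, and leaving out 1 replicate gave 2 to 4. In C24→C72 the count went from 1 (2.94% of all genes) to 0 at 2-fold (0.556%), to 0 with the test against 1.5-fold (0.265%) and to 0 with the comparison fitted alone (0.224%), and to 2 without a fold threshold (9.09%), with median-centred arrays (2.9%), with arrays brought to a common spread (3.13%), or without the Cy3 array of replicate 2 (3.64%, an alternative chosen after seeing the data). The difference between cut and non-cut discs went from 0 to 1 without the Cy5 array of cut replicate 2 (0.572% against 0.0746% of all genes, also chosen after seeing the data). Over 72 hours the count went from 3 (16.8% of all genes) to 1 at 2-fold (6.45%) and to 1 with the test against 1.5-fold (4.64%). It went up to 4 without the Cy3 array of C24→C72 replicate 2 (17.1%, again chosen after seeing the data). With a replicate block the counts stayed at 1, 4, 1, 0 and 3 in this order, and crossing the numbers of the non-cut replicates, added because of the negative correlation of -0.12, gave the same counts. Except where a stricter threshold or fewer samples define the alternative, the cause was not tested. 2 replicates and log ratios without intensities limit what small changes can show.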

Other observations

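Genes beside the members in the reference annotation were read by name only. CG7829 and Atg16, which flank neo, were not called in any comparison, CG7829 standing at -0.01, 0.04 and -0.05. mey lies beside nyo, which was not analysed here, and CG11333, which was not called. dy lies between m, not analysed here, and Karl, a lipocalin gene that rose by 1.06 (adjusted p = 0.000211) in NC0→NC24 and by 2.06 (adjusted p = 1.13e-05) in C0→C24, where dy had values of -0.24 and -0.68. Claspin, beside dyl, fell in NC0→NC24 at -0.63 (adjusted p = 0.00443) and stood at -0.57 in C0→C24, while dyl stood at 0.10 and 0.07, and the call in NC0→NC24 was lost without replicate 1 at -0.40 (adjusted p = 0.111). Summed over 72 hours Claspin fell by 0.80 (adjusted p = 0.00715), a call lost without C0→C24 replicate 2 at -0.71 (adjusted p = 0.0711), and dyl stood at 0.23. ine, a transporter gene beside dpy, was not called in any single comparison, at 0.53, 0.40 and 0.38. Its sum in cut discs rose by 0.77 (adjusted p = 0.0319), where that of dpy was -0.09, and this call was lost without C0→C24 replicate 1, C0→C24 replicate 2 or C24→C72 replicate 1 (adjusted p = 0.0625, 0.232 and 0.161).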
